A study of Mus musculus with 4 samples.

Results

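Nuclear factor I genes encode a family of DNA-binding transcription factors with 4 members in the mouse, Nfia, Nfib, Nfic and Nfix. The accessible regions of these genes were taken as every region of the ATAC-seq count table that overlapped one of them or the 25 kb on either side, which gave 224 of 255864 regions. Nfia held 75 of them, Nfib 81, Nfic 22 and Nfix 46. ATAC-seq inserts adapters into open DNA with a transposase, so that the reads counted over a region measure how accessible its chromatin is.

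The cells were primary osteoblasts of 3-day-old C57BL/6 mice of 2 genotypes, wild type (WT) and TCKO. The TCKO mice carried Prx1-Cre and floxed alleles of all 3 Tet genes (Tet1fl/fl, Tet2fl/fl and Tet3fl/fl), while the other group is labelled wild type. TET enzymes oxidise 5-methylcytosine, a step in DNA demethylation, and Prx1-Cre acts in mesenchymal progenitors of the limbs and part of the skull, so cells of other origins keep the Tet genes. Per the study's methods the cells came from calvarial bone. The labels gave 2 samples per genotype while a protocol text gave 3 repeats, a number the study's methods state for RNA-seq. The table held 1 merged column per genotype. No difference below therefore has a replicate check or a p-value. Intervals (95%) were made by Wilson's method from the part of the counts that TCKO held, and cover counting error only, and reads made by PCR are not independent molecules. Fewer cells of one kind and less open chromatin per cell cannot be told apart in such bulk samples.

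NFI proteins bind as dimers to a palindrome made of TTGGC, 5 bases and GCCAA, or more weakly to one arm of it. NFIA is known for starting gliogenesis, NFIB for lung and forebrain maturation, NFIC for odontoblasts and tooth roots, where it acts through Osterix (Sp7), and NFIX for brain development and the fetal switch of skeletal muscle. The comparison asked whether loss of the 3 TET enzymes changed chromatin accessibility at these genes in osteoblasts.

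For each gene, the region with the largest fall and the one with the largest rise are shown by their sequence, among regions with at least 100 counts in the deeper genotype. TCKO counts were scaled to the WT total for this minimum. The Nfix region with the largest rise, with 48 WT and 63 TCKO counts, passed it only by its scaled TCKO count of 104. CpG, the dinucleotide that DNA methylation and the TET enzymes act on, is marked in them. Each sequence is the 200 bp around a region's midpoint in GRCm38, read on the plus strand. The exception is the internal start of Nfia, for which the 143 bp from the region's first base up to that start are given. The Nfix region higher in TCKO is 102 bp wide, so its sequence and the CpG in it run past both of its ends. None overlaps an annotated exon of the NFI genes, and exons of other genes were not checked. Capitals mark CpG.
Nfia, lower in TCKO, chr4:97953911-97954110: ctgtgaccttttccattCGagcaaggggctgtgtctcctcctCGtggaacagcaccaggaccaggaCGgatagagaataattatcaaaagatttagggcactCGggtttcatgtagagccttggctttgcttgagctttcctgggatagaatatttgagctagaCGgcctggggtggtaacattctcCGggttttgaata
Nfib, lower in TCKO, chr4:82573233-82573432: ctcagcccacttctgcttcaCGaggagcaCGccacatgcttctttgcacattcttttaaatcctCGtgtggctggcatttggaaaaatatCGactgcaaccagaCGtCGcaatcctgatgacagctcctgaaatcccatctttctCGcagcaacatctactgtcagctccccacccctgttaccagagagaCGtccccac
Nfic, lower in TCKO, chr10:81411675-81411874: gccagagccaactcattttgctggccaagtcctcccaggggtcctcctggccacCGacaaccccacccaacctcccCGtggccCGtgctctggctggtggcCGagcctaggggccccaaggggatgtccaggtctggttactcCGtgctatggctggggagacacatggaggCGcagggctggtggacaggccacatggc
Nfix, lower in TCKO, chr8:84749860-84750059: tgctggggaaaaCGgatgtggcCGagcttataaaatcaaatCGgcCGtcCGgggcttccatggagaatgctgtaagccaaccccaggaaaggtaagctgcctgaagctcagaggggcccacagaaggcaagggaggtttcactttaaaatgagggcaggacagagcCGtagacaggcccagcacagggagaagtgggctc
Nfia, before the internal start, chr4:97910890-97911032: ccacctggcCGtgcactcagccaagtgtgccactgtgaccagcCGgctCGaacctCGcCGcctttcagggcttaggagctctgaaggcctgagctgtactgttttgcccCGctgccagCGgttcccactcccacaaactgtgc
Nfia, higher in TCKO, chr4:97964063-97964262: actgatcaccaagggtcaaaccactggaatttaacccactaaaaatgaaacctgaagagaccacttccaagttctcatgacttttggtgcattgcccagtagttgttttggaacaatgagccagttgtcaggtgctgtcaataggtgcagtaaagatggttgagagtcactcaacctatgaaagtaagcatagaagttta
Nfib, higher in TCKO, chr4:82641436-82641635: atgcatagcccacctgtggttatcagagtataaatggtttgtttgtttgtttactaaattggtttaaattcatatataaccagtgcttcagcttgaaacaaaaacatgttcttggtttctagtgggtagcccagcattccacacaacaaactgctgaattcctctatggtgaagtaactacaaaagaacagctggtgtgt
Nfic, higher in TCKO, chr10:81471928-81472127: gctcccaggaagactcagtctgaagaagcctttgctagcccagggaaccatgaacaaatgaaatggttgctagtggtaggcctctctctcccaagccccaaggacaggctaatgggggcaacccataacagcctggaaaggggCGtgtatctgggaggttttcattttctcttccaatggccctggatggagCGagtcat
Nfix, higher in TCKO, chr8:84792564-84792763: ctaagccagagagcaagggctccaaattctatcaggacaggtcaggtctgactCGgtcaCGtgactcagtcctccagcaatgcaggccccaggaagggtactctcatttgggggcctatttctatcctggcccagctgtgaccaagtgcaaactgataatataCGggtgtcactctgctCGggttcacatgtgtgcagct

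The 4 sequences lower in TCKO cells held 6 CpG in Nfia, 8 in Nfib, 6 in Nfic and 6 in Nfix. The stretch before the internal start of Nfia held 7. The sequences higher in TCKO cells held 0 CpG in Nfia, 0 in Nfib, 2 in Nfic, where the interval of the ratio included 0, and 4 in Nfix. Shallower regions had larger ratios and are not shown. The lowest log2 ratio of the family, -1.77 (-2.73 to -0.92), was at chr4:97839115-97839250 in an intron of Nfia, with 64 WT and 11 TCKO counts, and this region held 0 CpG. The Nfix sequence also held the bZIP letters TGANTCA, bound by AP-1 factors, at bases 62 to 68. The Nfib sequence held the Runt letters TGTGGT at bases 15 to 20 and the reverse complement of the TEAD letters GGAATG at bases 135 to 140.

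All 4 NFI loci were less accessible in TCKO cells by summed counts. The table held 56898657 counts in WT and 34608167 in TCKO, and TCKO counts were multiplied by the quotient of these totals, 1.644, before any comparison. Over all 224 regions, 67932 counts in WT stood against 36252 in TCKO, or 59601 after scaling, a log2 ratio of TCKO over WT of -0.19 (interval -0.21 to -0.17). The median NFI region had a log2 ratio of -0.17, where the median of all regions was 0.06. The ratio was below 0 at 138 NFI regions and above 0 at 86, which is 61.6% below 0 beside 45.4% of all regions.

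Over all regions of the window, Nfib had the lowest ratio. Its 81 regions held 16640 WT and 8650 TCKO counts, a log2 ratio of -0.23 (-0.26 to -0.19). Nfia followed with 18598 and 9945 counts and a ratio of -0.19 (-0.22 to -0.15). Nfix had 19962 and 10759 counts, with -0.17 (-0.21 to -0.14), and Nfic 12732 and 6898 counts, with -0.17 (-0.21 to -0.12). The intervals of neighbours in this order overlapped, so neighbours could not be ranked at this depth. Without regions of other genes Nfic was lowest instead, with -0.26 beside -0.23 at Nfib. Of 3291 protein-coding loci with at least 20 regions, formed by the same rule, 9.24% had a lower ratio than Nfib, 13.7% than Nfia, 15.6% than Nfix and 16.9% than Nfic.

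The interval lay below 0 at 4 of 4 NFI loci, beside 35.7% of 19921 protein-coding loci below 0 and 28% above. Loci with few regions have wider intervals. Of the 3291 loci with at least 20 regions, as each NFI locus has, 1322 were below 0 and 1124 above. Neither of the families set beside the NFI genes shared this count, and no other family was read. Of the TEAD genes, effectors of the Hippo pathway, 1 of 4 was below 0 (Tead4, -0.06), 1 above (Tead2, 0.35) and 2 had intervals that included 0. Of the Runx genes and their partner Cbfb, Runx3 was below 0 (-0.37), and Runx1, Runx2 and Cbfb had intervals that included 0. No test of the difference between families was possible with 1 column per genotype.

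**Figure D1:**
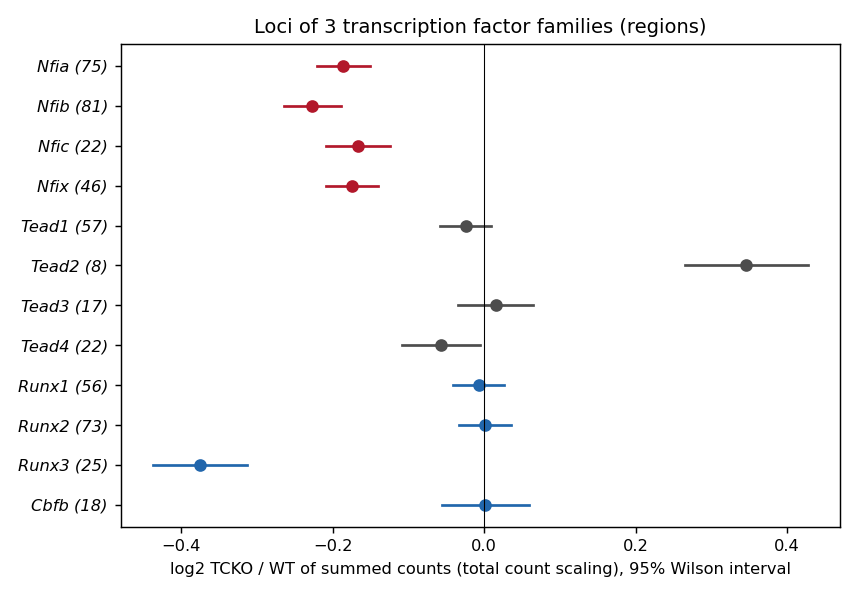
Summed log2 ratio of TCKO over WT counts, scaled to equal totals, at the loci of the NFI genes (red), TEAD genes (grey) and Runx genes with Cbfb (blue), with the number of regions after each name. Points are ratios and lines 95% Wilson intervals; the 4 NFI loci lie between -0.23 and -0.17, all with intervals below 0.

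Chromatin at the smaller genes was denser in counts. Per kb of region, WT cells had 1205 counts at Nfic and 1162 at Nfix, against 677 at Nfia, 597 at Nfib and 664 over the whole table. After scaling, TCKO cells had 1074, 1029, 595 and 510 counts per kb of region in the same order. The order of the genes by this level was thus Nfic, Nfix, Nfia and Nfib in both genotypes. The smaller genes also had the higher GC content, with means over regions of 59.1% at Nfic and 57.2% at Nfix against 46.9% at Nfia and 47.5% at Nfib.

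At a fold of 2, 15 NFI regions were lower in TCKO cells, 6.70% of 224 beside 4.51% of all regions. At the same cutoff 5 were higher, 2.23% beside 12.3% of all regions. The study also used a fold of 2, but on the relative enrichment of peaks, and reported more closing than opening regions in TCKO cells. With counts scaled to equal totals, the shares of all regions went the other way. Without scaling, 91 NFI regions were lower (40.6% beside 25.6% of all regions) and 2 higher (0.893% beside 3.17%). With the background of the peak caller as the scale, 72 were lower (32.1% beside 19.9%) and 2 higher (0.893% beside 3.91%). The median of all regions moved to -0.64 and -0.54 under these 2 settings. With no fold cutoff, the interval lay below 0 at 80 NFI regions and above 0 at 32, beside 18.9% and 29.5% of all regions. The lower regions were 8 in Nfia, 6 in Nfib, 1 in Nfic and 0 in Nfix. The higher regions were 2 in Nfia, 2 in Nfib, 0 in Nfic and 1 in Nfix.

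The 2 directions differed in depth. Each of the 5 higher regions had 48 or fewer WT counts, and 4 of them had under 100 counts over both genotypes. The lower regions had between 33 and 874 WT counts, and 5 of them had at least 400 counts over both genotypes. Of the 83 NFI regions with at least 400 counts, these 5 were lower and 0 higher, beside 2.92% lower and 2.11% higher of all regions of that depth. Among the 46 NFI regions with under 100 counts, 3 were lower and 4 higher, beside 6.29% and 21.9% of all regions of that depth. NFI regions held more counts than most, with a median of 251 over both genotypes against 147 in the table, and the part of this depth in the smaller number of higher regions was not tested.

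**Figure D2:**
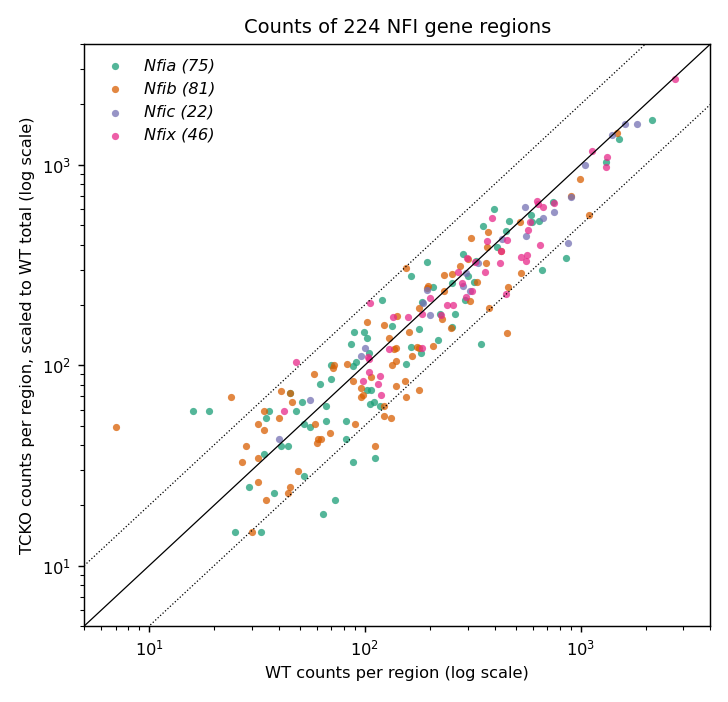
WT counts against scaled TCKO counts of the 224 NFI regions on log axes, 1 point per region, coloured by gene. The solid line marks equal counts and the dotted lines a fold of 2; the 5 regions above the upper line have at most 48 WT counts.

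Nfia, known for its part in gliogenesis, spans chr4:97772734-98118874 on the plus strand and held most of the lower regions. The strongest in counts, at chr4:97868253-97869487 in an intron 96.1 kb after the outermost start, had 854 counts in WT and 209 in TCKO, or 344 after scaling, a log2 ratio of -1.31 (-1.53 to -1.10). The next region of the gene lay 153 bp on and was lower too, with 73 and 13 counts and a log2 ratio of -1.73. Accessibility over this stretch of the intron was thus lower in both neighbouring regions.

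Farther along Nfia, the region at chr4:97990490-97990911 had 345 WT and 78 TCKO counts, a log2 ratio of -1.42 (-1.78 to -1.07). Near the end of the gene, at 332 kb, chr4:98104079-98104584 had 663 and 181 counts, which gave -1.15 (-1.39 to -0.92). The largest fall among regions of at least 100 counts in the deeper genotype was at chr4:97953868-97954153, whose sequence is given above, with 111 and 21 counts and a log2 ratio of -1.66 (-2.35 to -1.02). This region was called as a peak in WT cells and not in TCKO cells.

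The most accessible region of Nfia was not among those past the cutoff. At chr4:98003764-98004768, in an intron 232 kb after the outermost start, it had 2149 WT and 1012 TCKO counts, a log2 ratio of -0.37 (-0.48 to -0.26), and held 11.6% of the WT counts of the locus. The 2 higher regions of Nfia lay on either side of it, at chr4:97997336-97997503 with 16 WT and 36 TCKO counts and at chr4:98033081-98033240 with 19 and 36. The largest rise among deeper regions, at chr4:97963933-97964392, had 120 and 128 counts, or 210 in TCKO after scaling, a log2 ratio of 0.81 (0.45 to 1.17). It stayed inside the cutoff.

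Nfib, a gene of lung and brain maturation, spans chr4:82290173-82705750 on the minus strand. Its largest fall, at chr4:82572985-82573679 in an intron 132 kb after the outermost start, had 455 WT and 88 TCKO counts, or 145 after scaling, a log2 ratio of -1.65 (-1.98 to -1.32). The peak caller gave its summit 7.39-fold over the local background in WT and 4.21-fold in TCKO. The other 5 lower regions of Nfib lay in the last stretch of the gene or just past its end, from 301 to 416 kb after the outermost start, with 111 to 179 WT counts and log2 ratios between -1.47 and -1.12. The lower regions of Nfib were thus 1 deep region upstream of the main accessible start and a group of shallower ones far downstream of it.

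The most accessible region of Nfib, at chr4:82399781-82400952, had 1481 WT and 872 TCKO counts, and its log2 ratio of -0.05 had an interval that included 0 (-0.17 to 0.07). It lay between 2 of the lower regions, which start at 82391131 and 82404427. The largest rise among deeper regions of Nfib, at chr4:82641264-82641806, had 155 and 186 counts, or 306 in TCKO after scaling, a log2 ratio of 0.98 (0.67 to 1.29), just inside the cutoff. In the flank 20.8 kb before the outermost start, a region with 7 WT and 30 TCKO counts had the highest log2 ratio of the family, 2.65 (1.66 to 3.97). The other higher region of Nfib, at chr4:82479252-82479406, had 24 and 42 counts and a log2 ratio of 1.49 (0.81 to 2.24).

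Nfic, the NFI gene tied to odontoblasts and root formation, spans chr10:81396186-81455635 on the minus strand. Its 1 lower region was the deepest of the family past the cutoff, at chr10:81411505-81412044 in an intron, with 874 WT and 247 TCKO counts and a log2 ratio of -1.10 (-1.31 to -0.90). Its most accessible region, at chr10:81401253-81402622, had 1836 and 966 counts and a log2 ratio of -0.21 (-0.32 to -0.10). No region of the Nfic locus had an interval above 0. The largest rise among its deeper regions lay at the start of the neighbouring gene Celf5, with 100 and 74 counts, and its log2 ratio of 0.28 had an interval that included 0 (-0.15 to 0.71).

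Nfic sits among other genes, and 8 of its 22 regions overlapped or started them. Without those regions the log2 ratio of Nfic was -0.26 (-0.31 to -0.21). The 5 regions at starts of other genes around Nfic had 3486 WT and 2124 TCKO counts, a log2 ratio of 0.00 (-0.08 to 0.08). The lower counts of this locus were in the regions of Nfic itself.

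Nfix, which acts in brain and in fetal muscle, spans chr8:84699876-84800344 on the minus strand. With the total count, no region of it was past the cutoff downwards. Its largest fall, at chr8:84749650-84750268 in an intron, had 453 WT and 138 TCKO counts and a log2 ratio of -0.99 (-1.27 to -0.72), just inside the cutoff. This region was past it under TMM, at -1.07, and under loess, at -1.02, and also without scaling, at -1.71, and with the peak caller's background, at -1.60. With bins of GC content it stayed inside, at -0.98. The nearest NFI regions beyond the cutoff had log2 ratios of -1.10 (Nfic) and 1.09 (Nfix). The most accessible region of the whole family lay in an Nfix intron at chr8:84742099-84743078, with 2728 and 1619 counts, and its log2 ratio of -0.04 had an interval that included 0 (-0.12 to 0.05). The higher region, at chr8:84792613-84792714, had 48 WT and 63 TCKO counts, or 104 in TCKO after scaling, a log2 ratio of 1.09 (0.57 to 1.65).

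Among the 10 regions with most counts of each gene, the ratio was below 0 at 9 in Nfia and at 8 in each of Nfib, Nfic and Nfix. These regions held 51.2% of the WT counts of the Nfia locus, 43.0% at Nfib, 80.1% at Nfic and 52.1% at Nfix, and their summed log2 ratios were -0.35, -0.30, -0.20 and -0.15.

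**Figure D3:**
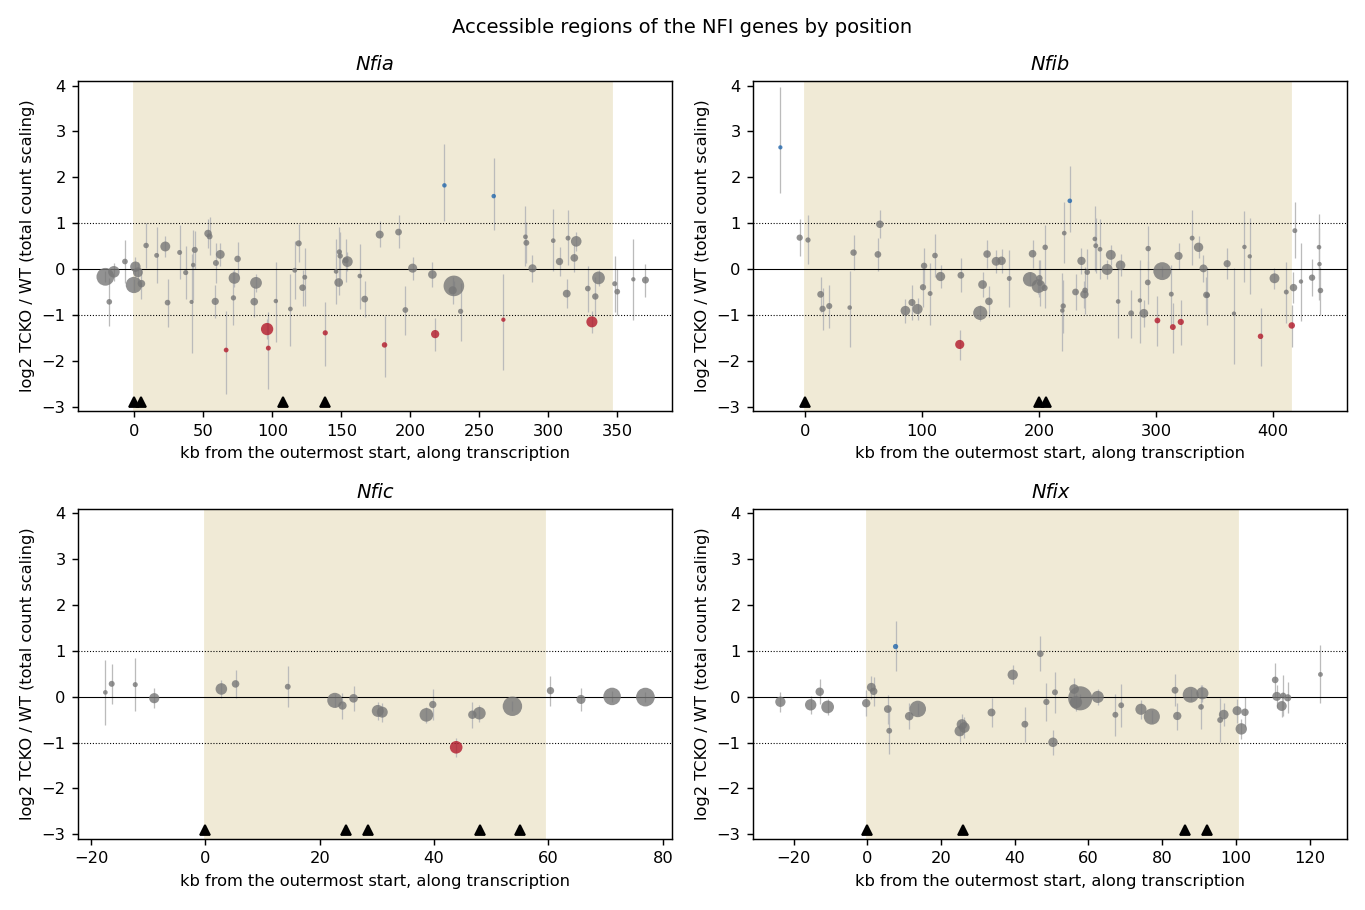
Log2 ratio of TCKO over WT (scaled to equal totals) of each NFI region against its distance in kb from the outermost start of its gene along transcription, with 95% Wilson intervals as vertical lines and point area growing with counts. Red points are at least 2-fold lower, blue at least 2-fold higher and grey within 2-fold; shading spans the gene, triangles mark annotated starts and dotted lines a fold of 2. Lower regions lie inside Nfia, Nfib and Nfic, or just past the end of Nfib.

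Introns held 168 of the 224 regions and 13 of the 15 lower ones, and their summed log2 ratio was -0.19 (-0.21 to -0.17). The 14 regions within 1 kb of an own start had 6482 WT and 3084 TCKO counts, a lower log2 ratio of -0.35 (-0.42 to -0.29). The intervals of these 2 classes did not overlap. Upstream flanks had -0.09 (-0.16 to -0.03) over 12 regions and starts of other genes -0.08 (-0.15 to -0.02) over 12. The 14 downstream flanks had -0.23 (-0.36 to -0.10) and the 4 regions in own exons -0.33 (-0.51 to -0.14). Own starts were lower than introns at each of the 4 genes by summed counts, from -0.28 at Nfia to -0.45 at Nfix, but the 2 intervals overlapped at Nfia, Nfib and Nfic. The other classes had no such common order, since at Nfix the introns were at -0.12, the upstream flank at -0.14 and starts of other genes at -0.24. As background, all 22831 regions within 1 kb of a protein-coding start had a summed log2 ratio of -0.11.

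Not each annotated start was open in these cells. Nfib had no region within 1 kb of its outermost start, and its accessible start lay far downstream, where 10 transcripts begin within 82505308 to 82505779. There, 3 regions held 1142 WT and 546 TCKO counts, a log2 ratio of -0.35 (-0.49 to -0.20). Nfic likewise had no region within 1 kb of its outermost start. Its starts with regions were the one at 81431005, with 284 and 151 counts and an interval that included 0 (-0.48 to 0.09), and the one at 81407641, with 750 and 355 counts and a log2 ratio of -0.36 (-0.54 to -0.18).

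Nfix had 2 accessible groups of starts that differed. At the outermost starts, 84800024 to 84800344, 581 WT and 365 TCKO counts gave a log2 ratio of 0.05 with an interval that included 0 (-0.14 to 0.24). At the starts 26.0 kb downstream, 84773396 to 84774369, 1651 and 628 counts gave -0.68 (-0.81 to -0.54). The intervals did not overlap, so within 1 gene the counting error did not cover the difference between the promoters. Whether replicates would cover it was not tested.

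Nfia was open at its outermost start, with 1762 WT and 910 TCKO counts and a log2 ratio of -0.24 (-0.35 to -0.12), in regions shared with the neighbouring gene E130114P18Rik. Its second group of starts, 4.87 kb downstream, had 224 and 109 counts and an interval that included 0 (-0.65 to 0.01). The internal start of a noncoding transcript 138 kb into the gene, at 97911033, had 88 and 20 counts and a log2 ratio of -1.39 (-2.11 to -0.73), the only own start of the family past the cutoff. Of 14353 genes with at least 200 counts at their coding starts, 3.15% had a lower ratio there than Nfix, 6.54% than Nfib, 8.81% than Nfic and 16.7% than Nfia. The median of these genes was -0.10.

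**Figure D4:**
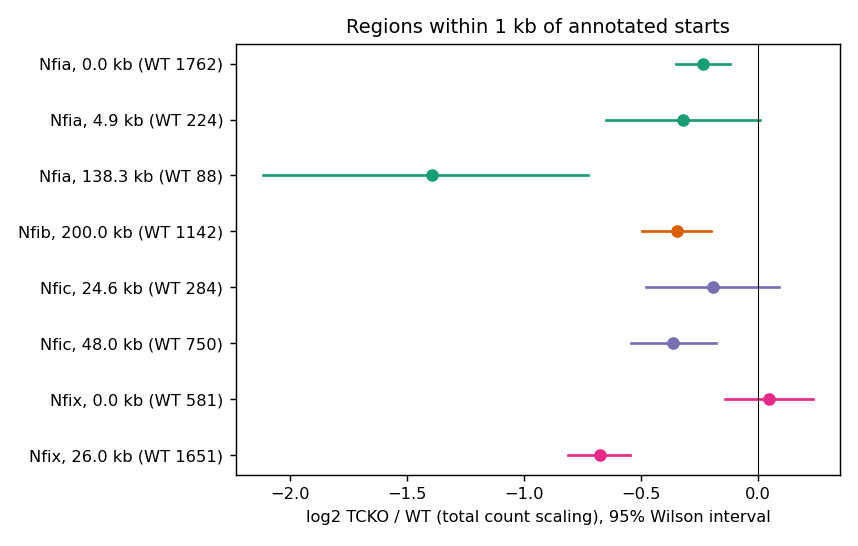
Log2 ratio of TCKO over WT counts (scaled to equal totals) summed over regions within 1 kb of each group of annotated NFI starts, with 95% Wilson intervals as lines. Labels give the gene, the distance in kb from its outermost start and the WT counts; Nfix is at 0.05 at its outermost starts and at -0.68 at those 26.0 kb downstream.

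The content of CpG was set beside the ratios. CpG were counted in the 200 bp around the midpoint, which runs past the ends of narrower regions. The 5 higher regions had a median width of 155 bp and the 15 lower ones of 342 bp. The 15 lower NFI regions had a median of 5 CpG and the 204 regions within 2-fold a median of 3. The 5 higher regions had a median of 2, as did all regions of the table. Grouped by CpG, the median log2 ratio of NFI regions was 0.19 with 0 CpG (22 regions), -0.05 with 1 to 2 (79 regions), -0.18 with 3 to 5 (68 regions) and -0.27 with 6 or more (55 regions). The ratio was below 0 at 9 of the 22 regions without CpG and at 46 of the 55 with 6 or more. The same order held over all regions, with medians of 0.30, 0.15, -0.02 and -0.09. The NFI median was thus below that of all regions in each class, and the order by CpG is not particular to these genes.

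Depth moved with CpG, and GC content did too by construction. The median NFI region had 225 counts with 0 CpG and 591 with 6 or more. Among regions with at least 200 counts, the NFI medians were 0.24 (12 regions), -0.14 (33), -0.15 (40) and -0.22 (46) in the same classes, beside 0.21, 0.06, -0.08 and -0.10 for all regions of that depth. The NFI median with 0 CpG was therefore no longer below that of all regions. Removing the median ratio of bins of GC content left the median of the family at -0.18, beside 0 for all regions. DNA methylation was not measured in these libraries.

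**Figure D5:**
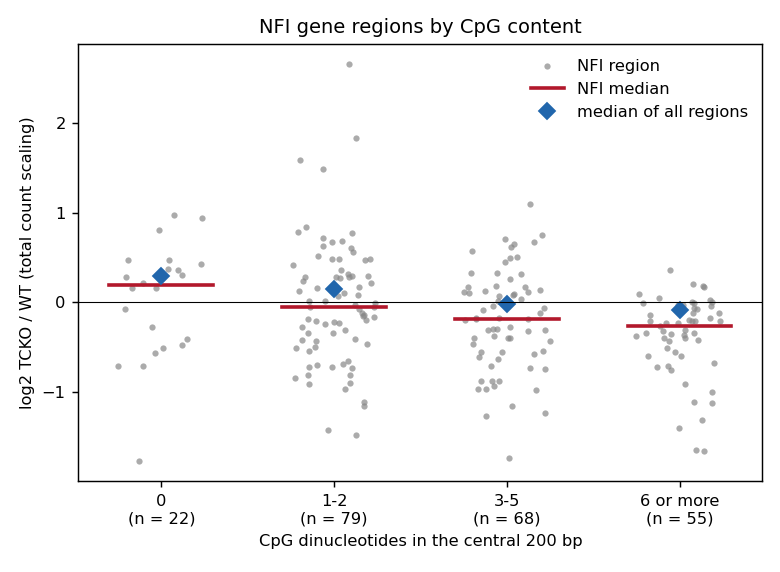
Log2 ratio of TCKO over WT (scaled to equal totals) of the 224 NFI regions by the number of CpG dinucleotides in the 200 bp around their midpoint. Grey points are regions, spread sideways at random, red bars their medians (0.19, -0.05, -0.18 and -0.27 from left to right) and blue diamonds the medians of all regions of the table.

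Letters bound by NFI, Runt, AP-1 and TEAD factors were counted in the same 200 bp on both strands. The NFI half-site TTGGCA was found in 31 NFI regions, 13.8% beside 14.6% of all regions, so the share was near that of the table. The full palindrome was in 0 of 224, which allows a share of up to 1.34%, and in 0.0332% of all regions. Runt letters TGTGGT were in 49 regions, 21.9% beside 22.2%, and TEAD letters GGAATG in 36, 16.1% beside 16.3%. Nfib held 26 of the 49 Runt matches, 32.1% of its regions.

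The bZIP letters TGANTCA stood apart, in 23 NFI regions or 10.3%, beside 23.6% of all regions. They were in 3 of the 5 higher regions and in 1 of the 15 lower ones. The median log2 ratio of the 23 NFI regions with these letters was 0.18, and of all regions with them 0.42. Higher ratios with these letters were thus not particular to the NFI genes. The lower regions held the NFI half-site in 3 cases, Runt letters in 4 and TEAD letters in 1, and the higher regions held TEAD letters in 2 and neither of the others. A match of letters is a description and not a bound site.

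The peak lists were read at the same regions. A peak summit was called in both genotypes in 148 NFI regions (66.1%), in WT alone in 67 (29.9%) and in TCKO alone in 9 (4.02%), where 56.8%, 33.0% and 10.2% of all regions fell in these classes. All 5 higher regions were called in TCKO alone. Of the 15 lower ones, 9 were called in WT alone and 6 in both. In the 148 regions called in both, the summit's fold over the local background was lower in TCKO at 87, which is 58.8% beside 69.7% of all regions called in both. The median log2 ratio of these folds, which the total count does not scale, was -0.13 for the NFI regions called in both and -0.19 for all regions called in both. The 9 lower regions called in WT alone have no such value. By gene, this median was -0.07 at Nfia, -0.17 at Nfib, -0.18 at Nfic and -0.16 at Nfix.

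Genes named in the literature as NFI partners or targets were taken as a list of 18. The interval of the summed ratio lay below 0 at 7 of them, above 0 at 2 and included 0 at 9, and the median locus was at -0.08 beside -0.02 for all protein-coding loci. Below 0 were Sp7, the osteoblast factor that NFIC acts through, at -0.23, Hes1, the Notch effector, at -0.22, Apcdd1, a Wnt inhibitor, at -0.19, Zcchc24 at -0.39, Fabp7, a fatty acid binding protein of radial glia, at -0.15, S100b, a glial calcium-binding protein, at -0.12, and Nfatc4 at -0.09. Above 0 were Ezh2, the H3K27 methyltransferase, at 0.15 and the chondrocyte factor Sox9 at 0.10. With 35.7% of all loci below 0, the 7 of 18 were near the background share.

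Cell type markers were read from the same table. As background, 35.7% of all protein-coding loci had intervals below 0 and 28% above. All 9 osteoblast markers had counts at their starts in WT, from 93 to 1768, and 5 of their loci had intervals below 0 and 1 above. Endothelial markers moved the other way, with intervals above 0 at 4 of 4 loci, log2 ratios between 0.21 and 0.36, and 57 to 399 WT counts at their starts. Muscle markers had 2 of 4 loci above 0 and 0 below. No region of the table lay within 1 kb of the starts of Myod1, Myf5 and Myog, so reads there were not counted. The same held for Ptprc, on the macrophage or osteoclast list, and Adipoq, on the adipocyte list. Of macrophage or osteoclast markers 3 of 6 were below 0 and 2 above, of chondrocyte markers 1 of 3 below and 1 above, and of adipocyte markers 1 of 3 below and 1 above. The NFI genes had 1034 to 2232 WT counts at their own starts. The part of other cells in the NFI ratios was not tested.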

How the data were processed

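ATAC-seq was performed on cultured osteoblasts of both genotypes, for which the labels list 4 samples. Per the submitters' processing notes, CASAVA, STAR 2.7.0e and MACS2 were used with build GRCm38, and the study's methods state end-to-end alignment of uniquely mapping reads and a merge of the replicates. The authors deposited raw counts per region in 1 merged column per genotype (56898657 in WT and 34608167 in TCKO), and 0 other columns of sample values were left aside. Whether a count is a read or a fragment, and whether duplicates were removed or reads shifted for the transposase, is not given in the sources used here. The authors' deposited peak lists gave summit folds, a ratio to the local background, with −log10 of p-values, and −log10 of q-values that were not used. The columns of positions and names were used as deposited.

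Genes and starts came from GENCODE M21 and sequences from the RefSeq copy of GRCm38. All 21 chromosomes were long enough for the coordinates, which are counted from 1. The log2 ratio was that of scaled TCKO counts plus 1 over WT counts plus 1, after TCKO was brought to the total of WT. Summits were matched to the regions they fall in. A region was at a start if its midpoint was within 1 kb of it. Intervals were 95% Wilson intervals, which this depth makes narrow at loci and wide at shallow regions. Described for each gene were the region with most counts, the one with most counts at an own start, and the largest fall and rise among regions with at least 100 counts in the deeper genotype. That minimum used scaled TCKO counts. Other regions past the cutoff, and the groups by CpG, depth and start, were chosen after their values were seen.

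Because the columns are merged, the test planned for replicates (edgeR) was not possible. Alternatives were no scaling, TMM (edgeR 4.0.16, R 4.3.3), the lowest background of the peak caller, loess (statsmodels 0.14.6, span 0.3), 20 bins of GC content, other region sets, at least 50 counts, 10 counts added and other cutoffs. The ratio and interval code was tested on simulated data. The deletion of Tet exons was not checked here. Members, lists and letters were chosen with earlier results of these data known.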

Additional observations from a re-analysis of the deposited data

How the results depend on the processing

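No paired analysis was possible because each genotype has 1 merged column of counts. Leaving out a replicate and the edgeR test could not be done for the same reason. No ratio of the 4 loci changed sign under any alternative. Without scaling the log2 ratios of Nfia, Nfib, Nfic and Nfix were -0.90, -0.94, -0.88 and -0.89 and the median region -0.89, with 91 regions lower and 2 higher. Under the peak caller's background, a factor of 1.078, they were -0.79, -0.84, -0.78 and -0.78 and the median -0.78, with 72 lower and 2 higher. Under TMM, a factor of 1.56, they were -0.26, -0.30, -0.24 and -0.25, and the median -0.25. These factors shift all regions alike, to medians of -0.64, -0.54 and -0.01 over the table, beside 0.06. Of all regions, 25.6% were lower and 3.17% higher without scaling, and 19.9% and 3.91% under the peak caller's background. The family's median lay 0.24 below that of the table with any of the 4 factors, since each moves both medians alike. The family's median minus that of the table was -0.179 under loess and -0.185 under GC bins. The share of lower among all called NFI regions thus depends on the scaling, and was 15 of 20 with the total count. GC bins gave -0.27 at Nfia and -0.32 at Nfib. Loess gave -0.10 at Nfic and -0.14 at Nfix. Without regions of other genes, Nfic was at -0.26 and Nfix at -0.14, and with the gene and 2 kb before its start Nfic was at -0.26. A fold of 1.5 gave 49 lower and 21 higher regions, 21.9% and 9.38% beside 13.2% and 23.3% of all regions. A fold of 3 gave 4 and 3, which is 1.79% and 1.34% beside 0.784% and 4.03%. An interval wholly past the cutoff gave 4 and 2, which is 1.79% and 0.893% beside 0.654% and 3.82%. Ratios of named regions and starts under other scalings, added after the data were seen, moved by more than their interval in 48 of 104 cases. In 0 of these cases did a ratio whose interval left out 0 change sign. With 1 column per genotype, depth limits the ratio of a single shallow region more than that of a locus.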
